A study of Mus musculus with 23 samples.

Results

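Hedgehog signalling is followed here through 9 genes of the limb bud: the ligand gene Shh, the receptor and coreceptor genes Ptch1, Smo and Boc, the ligand-binding antagonist gene Hhip, the transcription factor genes Gli1, Gli2 and Gli3, and Grem1, which relays the signal to the limb ectoderm. They were taken by symbol from the table that compares Inv1DelCTCF with Inv1, and all 9 are among its 34682 genes. RNA came from distal forelimbs dissected at E11.5, with 2 libraries of Inv1DelCTCF and 3 of Inv1. The study's mutants carry CRISPR/Cas9-engineered structural variants that place an enhancer cluster of the Epha4 domain among many other genes. Inv1DelCTCF is named for the same inversion plus loss of a CTCF site, so both groups carry the inversion. The labels give both genotypes as mutant and G4 ESC as the cell type, and do not say how many clones were used or whether embryos were pooled. Inv1, Inv2, Inv3 and Inv4 (3, 4, 3 and 3 libraries) were also set against 5 wild type libraries, in tables of 72 to 79 genes that hold none of the 9. No change of the 9 genes against wild type can therefore be given here.

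Sonic hedgehog is secreted at the posterior margin of the limb bud by the zone of polarizing activity and patterns the digits. It binds Patched, which then no longer holds back Smoothened, and Smoothened signals through the primary cilium to the Gli factors. Gli3 acts mainly as a repressor where the signal is absent, Gli2 contributes activator function, and Gli1, Ptch1 and Hhip are transcribed in response to the signal. Gremlin, a BMP antagonist of the mesenchyme, keeps FGF expression on in the apical ectodermal ridge, and ridge FGFs in turn maintain Shh.

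No value per library is at hand. Group levels were rebuilt from the mean normalised count and the log2 change, so they carry no spread of their own, and the error of a comparison is the authors' SE. The most frequent lowest means fit 5 libraries with size factors between 0.587 and 1.49. The limb mesenchyme genes Prrx1 and Hoxd13 had means of 25893 and 19242 normalised counts in the authors' deposited table, and the forelimb gene Tbx5 one of 7273. Of the hindlimb genes, Tbx4 had a mean of 642, Hoxc10 of 72.4, Isl1 of 41.0 and Pitx1 of 19.2 in the authors' deposited table. Changes are Inv1DelCTCF over Inv1, on a sign that the headers leave unstated and that was found by matching levels across the tables. By that match, a positive log2 change in the authors' deposited table of these groups means lower in Inv1DelCTCF. Every log2 change credited to that table below is given with its sign turned.

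Ptch1 and Smo were lower in Inv1DelCTCF by the authors' Wald test, while Shh and Grem1 had the most negative fitted changes without passing it. A gene was called at an adjusted p under 0.05. Of the 8 members with an adjusted p, 2 were called, both lower and none higher, while 11.7% of the 11218 such genes were called, 7.89% lower and 3.81% higher. A count of 2 of 8 is too small to set the members apart from that background. Before adjustment 5 of the 8 had a p under 0.05, all with a negative change, against 26.1% of those genes in either direction and 16.1% lower. Their median log2 change was -0.18, beside -0.014 over all genes tested. The members were chosen with earlier results of these data known, so these values describe them and were not tested against the background.

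Both calls depended on the processing. After a trend in the GC content and length of the transcript was subtracted, 0 of the 8 were called and 4 had an unadjusted p under 0.05, with 3.71% of genes called. Of these 4, Ptch1, Gli3 and Grem1 were lower, and Boc was higher, with a log2 change of 0.18. The members' median log2 change was then -0.059, beside 0.0023 over all genes. Of all called genes 67.5% were lower, and 48.8% after that subtraction. Taking GC content and length from coding transcripts gave the same counts, with 3.46% of genes called. Shrinking the changes toward 0 with a normal prior also gave 0 of 8, with 3 at an unadjusted p under 0.05 and 3.67% of genes called. As every Wald score was scaled toward 0 there, more so for a larger SE, this setting could only remove calls. At an adjusted p under 0.01 there were 0 members (5.13% of genes), and with a log2 change of at least 0.3 in size there was 1, Ptch1 (6.12% of genes). The count was 2 in 4 further settings. These were adjustment over all genes with a p (4.2% of genes called), adjustment over genes with a mean of at least 10 (7.77%), and centring on the median of genes with an adjusted p (11%) or with a mean of at least 100 (11.1%).

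**Figure D1:**
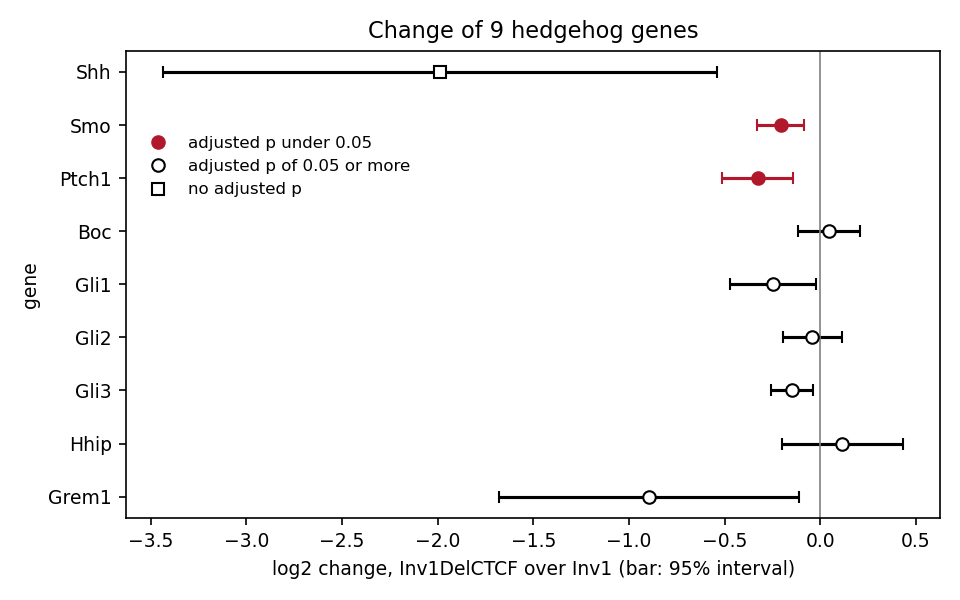
Log2 change of each hedgehog gene in Inv1DelCTCF over Inv1 (horizontal axis), with genes down the vertical axis and 95% intervals from the authors' SE as bars. Ptch1 (-0.33) and Smo (-0.21) are the called genes, and the interval of Shh, at -1.99, is the widest.

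The plot of changes shows narrow intervals for the receptor and Gli genes and wide ones for Shh and Grem1. Shh encodes the ligand, and its rebuilt level was 34.3 in Inv1DelCTCF and 136 in Inv1. In the authors' deposited table the gene shows a log2 change of -1.99 with an SE of 0.738 and an unadjusted p of 0.00712, or 0.252 of the Inv1 level (95% interval 0.0926 to 0.688). Shh has no adjusted p there: its mean of 95.4 is under 113, the lowest mean that has one. Adjusted here with the Benjamini-Hochberg method over all 21940 genes with a p, its value was 0.107, and over the 15177 genes with a mean of at least 10 it was 0.0741, so Shh did not pass.

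Shh is also made by the notochord and floor plate, and the levels of their markers are given beside it. Foxa2, Noto and Nkx6-1 had means of 0.526, 0.213 and 0.309 normalised counts in the authors' deposited table, and Nkx2-2 was listed at 0. T, also a gene of early mesoderm, had a mean of 37.3. The summed level of the 5 markers was 31.2 in Inv1DelCTCF and 43.1 in Inv1, of which T made up 30.4 and 41.9. T had a log2 change of -0.46 with an SE of 0.401 and an unadjusted p of 0.250 by the authors' Wald test. The part of these markers in the Shh value was not tested. In bulk tissue, fewer cells that express a gene and less RNA per cell cannot be told apart, for Shh or for any gene below.

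Ptch1 encodes the receptor and is itself a readout of the signal. It fell to 4708 in Inv1DelCTCF, against 5908 in Inv1, which is 0.797 of the Inv1 level (95% interval 0.70 to 0.907). In the authors' deposited table this is a log2 change of -0.33 with an SE of 0.0954 and an adjusted p of 0.0111. After the trend in GC content and length was subtracted, its log2 change was -0.30 with an adjusted p of 0.0508, just above the threshold of 0.05. Its longest transcript, of 10383 bases, is not annotated as coding, and with the longest coding one, of 7725 bases, the values were -0.27 and 0.0901. Over the 7 alternatives that give one, its adjusted p was 0.0150 to 0.0901.

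Smo encodes the transmembrane protein that passes the signal on. It fell to 8629 in Inv1DelCTCF, against 9960.3 in Inv1, which is 0.866 of the Inv1 level (95% interval 0.796 to 0.943). In the authors' deposited table this is a log2 change of -0.21 with an SE of 0.0626 and an adjusted p of 0.0155. The Smo transcript is GC-rich, at 57.8%, and after the trend was subtracted its log2 change was -0.049 with an adjusted p of 0.760. Its adjusted p over the 7 alternatives was 0.0207 to 0.760.

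Boc encodes a coreceptor that binds the ligand, and its rebuilt level was 3959.6 in Inv1DelCTCF and 3832 in Inv1. With a log2 change of 0.047 with an SE of 0.0824 and an adjusted p of 0.759 in the authors' deposited table, it did not pass, and the 95% interval of the ratio was 0.924 to 1.16. After the trend was subtracted, the log2 change of Boc was 0.18 with an adjusted p of 0.245. Hhip encodes a surface protein that sequesters the ligand and is a known target of the pathway, and its rebuilt level was 286 in Inv1DelCTCF and 265 in Inv1. With a log2 change of 0.12 with an SE of 0.161 and an adjusted p of 0.692 in the authors' deposited table, it did not pass either, and the interval of its ratio, 0.870 to 1.35, overlaps that of Ptch1. Whether Hhip and Ptch1 differ in their change was not tested.

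Promoters were found for 6 of the 9 genes, and not for Shh, Gli1 and Boc. Those of Ptch1 and Smo are printed because these genes were called, and that of Gli2 because it is the 1 of the 6 with the core letters of a GLI site. The sequences are from RefSeq (GRCm38.p6, not the authors' mm9), cover 250 bases before to 50 bases after the start of the gene, and run 5′ to 3′ along it. Capitals mark the GLI core ACCACCC and the GC box GGGCGG, read on either strand.
Ptch1, chr13:63565686-63565985, minus strand: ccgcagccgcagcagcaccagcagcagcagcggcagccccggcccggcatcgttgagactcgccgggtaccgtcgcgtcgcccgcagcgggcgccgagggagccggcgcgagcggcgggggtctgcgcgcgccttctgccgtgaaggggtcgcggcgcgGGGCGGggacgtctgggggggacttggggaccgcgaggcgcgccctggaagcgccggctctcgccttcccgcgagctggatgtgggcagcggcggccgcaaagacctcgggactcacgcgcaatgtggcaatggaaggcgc
Smo, chr6:29735247-29735546, plus strand: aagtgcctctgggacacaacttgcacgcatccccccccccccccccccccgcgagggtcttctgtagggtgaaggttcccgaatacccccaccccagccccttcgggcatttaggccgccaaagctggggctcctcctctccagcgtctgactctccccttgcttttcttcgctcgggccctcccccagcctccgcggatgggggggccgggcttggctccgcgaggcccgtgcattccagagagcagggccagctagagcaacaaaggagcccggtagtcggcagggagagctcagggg
Gli2, chr1:119053570-119053869, minus strand: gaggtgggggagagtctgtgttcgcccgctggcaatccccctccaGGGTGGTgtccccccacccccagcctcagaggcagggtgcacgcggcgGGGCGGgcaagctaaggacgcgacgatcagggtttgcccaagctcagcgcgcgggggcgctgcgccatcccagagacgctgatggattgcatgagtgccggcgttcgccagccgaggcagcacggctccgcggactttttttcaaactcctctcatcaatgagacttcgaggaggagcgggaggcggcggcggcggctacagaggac
The longer GLI sequence GACCACCCA, which contains the core, was in none of the 6 on either strand, and 0.253% of the 32851 promoters in the table hold it. The core in Gli2 begins 205 bases before the start, and 4.61% of promoters hold that core. Ptch1 and Gli2 hold 1 GC box each, Gli3 and Hhip 2 each, Grem1 3 and Smo 0, while 35.7% of promoters hold at least 1. The core and the GC box of Gli2 do not overlap. These matches describe letters in the window, and binding was not measured.

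Gli1, the Gli gene transcribed in response to the signal, had a rebuilt level of 2624 in Inv1DelCTCF and 3119 in Inv1. With a log2 change of -0.25 with an SE of 0.115 and an adjusted p of 0.140 in the authors' deposited table, it did not pass. The interval of its ratio, 0.720 to 0.983, holds the ratio found for Ptch1. Its GC content of 59.0% was the highest among the members, and after the trend was subtracted the log2 change was -0.068 with an adjusted p of 0.830 (range over the 7 alternatives 0.166 to 0.830).

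Gli3, whose product represses targets in the anterior limb, had a rebuilt level of 6737 in Inv1DelCTCF and 7458 in Inv1. With a log2 change of -0.15 with an SE of 0.0555 and an adjusted p of 0.0618 in the authors' deposited table, it lay just outside the threshold, while Smo was the called member nearest to it, at 0.0155, and at an adjusted p under 0.1 it was the member added, where 17.4% of genes are called. Gli2 had a rebuilt level of 3665 in Inv1DelCTCF and 3771 in Inv1. With a log2 change of -0.041 with an SE of 0.0781 and an adjusted p of 0.784 in the authors' deposited table, it did not pass, and after the trend was subtracted its log2 change was 0.12, with an adjusted p of 0.433 (range 0.414 to 0.992). None of the 3 Gli genes was called at 0.05 by the authors' Wald test, and 2 of them, Gli1 and Gli3, had an unadjusted p under 0.05.

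Grem1 encodes Gremlin, and its rebuilt level was 499 in Inv1DelCTCF and 929 in Inv1. In the authors' deposited table the gene shows a log2 change of -0.90 with an SE of 0.40, an unadjusted p of 0.0250 and an adjusted p of 0.125, or 0.537 of the Inv1 level (95% interval 0.312 to 0.925). Grem1 thus did not pass, although its fitted change was larger than those of Ptch1 and Smo. With the trend removed its log2 change was -0.95 with an adjusted p of 0.177. Shrinkage took it to -0.096 with an adjusted p of 0.798, the highest of its 7 alternatives, whose lowest was 0.134.

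**Figure D2:**
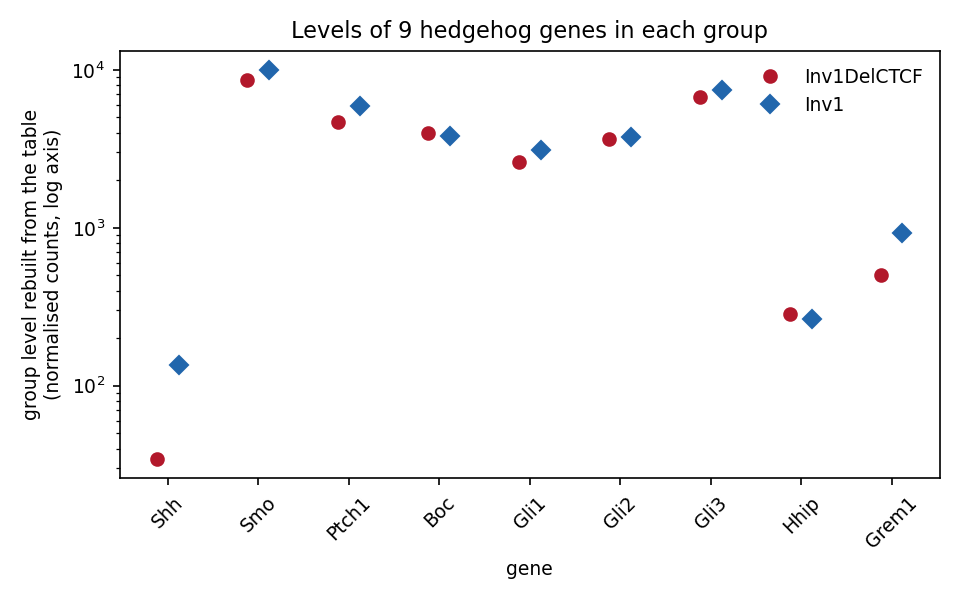
Rebuilt level of each hedgehog gene in Inv1DelCTCF and in Inv1, in normalised counts on a log axis. The symbols of Shh (34.3 and 136) and Grem1 (499 and 929) lie farthest apart, and no error is drawn because there is no value per library.

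Levels of different genes were compared per kilobase of the longest transcript. The mean level over the libraries was 2495 normalised counts per kilobase for Smo, 878 for Gli3, 872 for Boc, 720.0 for Gli1 and 562 for Gli2. It was 523 for Ptch1, or 703 per kilobase of its longest coding transcript, and 183 for Grem1, 33.5 for Shh and 30.1 for Hhip. Smo was thus the most abundant member and Shh and Hhip the rarest, and whether neighbours in this order differ could not be tested. In Inv1DelCTCF the level per kilobase was 12.1 for Shh and 31.6 for Hhip, against 47.8 for Shh and 29.2 for Hhip in Inv1. The plot of rebuilt levels shows the other members at close to the same level in both groups.

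Shh and Grem1 shared a large SE for their level. That of Shh was 2.82 times the median of the 200 genes nearest in mean count, 1 of which had an SE as large, and that of Grem1 was 3.74 times the median, with 2 of 200 as large. The SE of Ptch1 was 1.45 times and that of Smo 0.960 times the median of their peers. An SE of at least 2 times the running median was found for 187 of the 15177 genes with a mean of at least 10, or 1.23%, and for 2 of the 9 members. Among the listed genes 6 more had one, and they were named after their values were seen: Fgf8, Msx1, Pkdcc, Myog, Erbb3 and Hbb-y. Fgf8 encodes the main ridge FGF, and its SE was 3.50 times the running median, with a log2 change of -1.20 with an SE of 0.609 and an adjusted p of 0.188 in the authors' deposited table. Msx1 encodes a BMP-responsive factor, and its SE was 3.40 times the running median, with a log2 change of -0.99 with an SE of 0.421 and an adjusted p of 0.103 in the authors' deposited table. Neither passed, and which libraries carry the spread cannot be read without values per library.

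**Figure D3:**
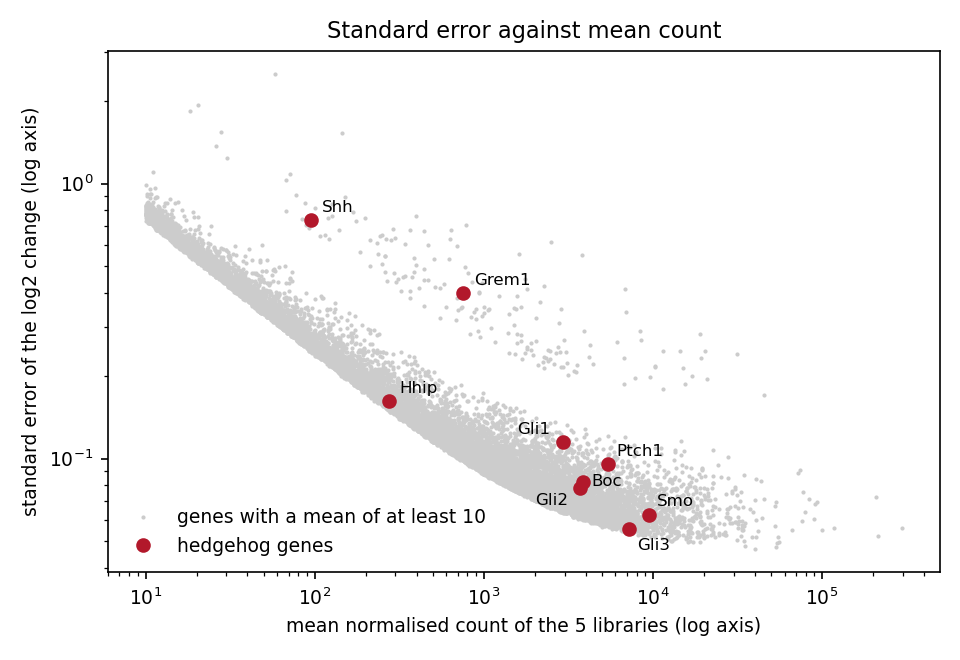
SE of the log2 change against the mean normalised count, both on log axes, for genes with a mean of at least 10 (grey) and the hedgehog genes (coloured). Shh (SE 0.738) and Grem1 (SE 0.40) lie above the band that holds the other members.

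The plot of SE against mean count sets these genes apart from the receptors and Gli genes. Across the whole table, the change of a gene also went with the GC content of its transcript. Among the 20% of tested genes with the highest GC content, the median log2 change was -0.17, 20.3% were called lower and 0.366% higher. In the 20% with the lowest GC content it was 0.094, 0.960% were called lower and 9.87% higher. Smo, Gli1, Gli2 and Boc were in the first of these sets. The changes of Smo (-0.21) and Gli1 (-0.25) lay below its median, and those of Gli2 (-0.041) and Boc (0.047) above it. Ptch1 and Grem1 were in the next to lowest set, with a median of 0.040, Gli3 in the middle one and Hhip in the lowest. Ptch1 was placed by its longest transcript. Its longest coding transcript has a GC content of 50.2%, within the range of the middle set, whose median was -0.016. The part of GC content in the members' changes was not tested further.

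**Figure D4:**
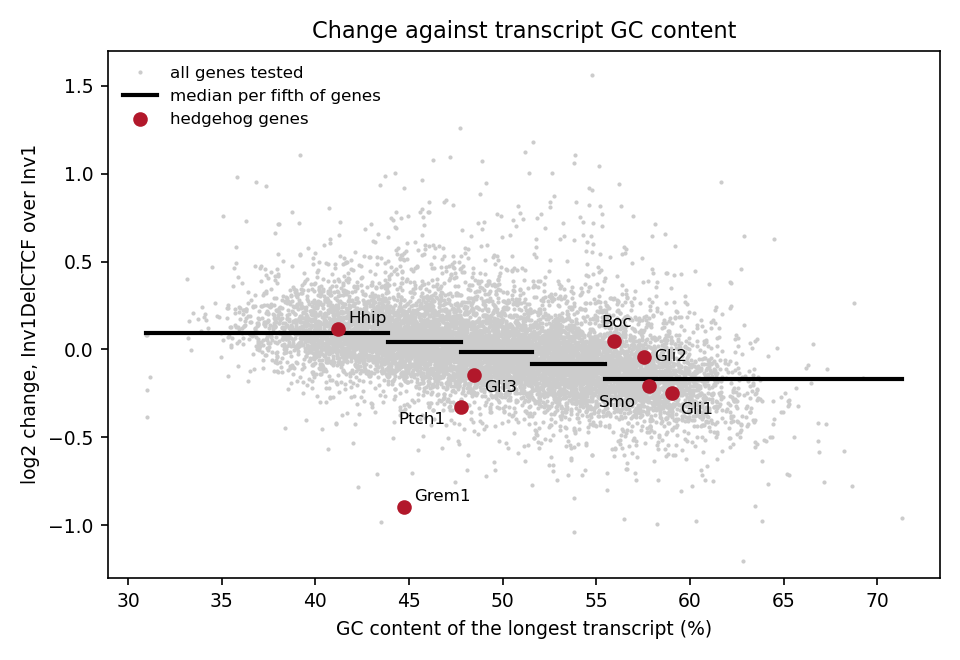
Log2 change of Inv1DelCTCF over Inv1 against the GC content of the longest transcript in percent, with all genes tested in grey, the hedgehog genes coloured and bars for the median of each of 5 equal sets by GC content. The bars step down between 0.094 and -0.17, with Smo and Gli1 below the last bar, Gli2 and Boc above it, and Ptch1 and Grem1 below theirs.

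The plot by GC content shows Ptch1 and Grem1 farther from genes of like GC content than Smo, by their longest transcripts. It draws no errors, Grem1 had an SE of 0.40, and whether these distances differ was not tested. After the trend was subtracted the adjusted p was 0.0508 for Ptch1 and 0.177 for Grem1, so neither was called. Over all tested genes 7.89% were called lower and 3.81% higher, and 3.71% were called after the trend was subtracted. These shares stand beside the counts of every list below. Among other genes for ligands and ligand release, 1 of 8 tested was lower and none higher, with a median log2 change of -0.047. That gene was Scube1, of the family whose products help release the lipid-bound ligand, with a rebuilt level of 5072 in Inv1DelCTCF and 6532 in Inv1. It fell by 0.36 on the log2 scale with an SE of 0.102 and an adjusted p of 0.00800 in the authors' deposited table, and its adjusted p after the trend was subtracted was 0.270 (range 0.0108 to 0.270). Ihh and Dhh, the other ligand genes, had means of only 14.0 and 5.05 normalised counts in the authors' deposited table, and Disp1, the gene of a ligand exporter, was listed at 0. Whether a listing at 0 means no RNA or reads that were not counted cannot be told here, for Disp1 or for other genes so listed.

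The other coreceptor genes tested were Cdon and Gas1, and neither was called by the authors' Wald test, with an unadjusted p under 0.05 for 1 of the 2, Cdon. Cdon, a relative of Boc, had a log2 change of 0.24 with an SE of 0.0957 and an adjusted p of 0.0809 in the authors' deposited table. Gas1, whose product also binds the ligand at the membrane, had a log2 change of -0.035 with an SE of 0.0625 and an adjusted p of 0.768 in the authors' deposited table. Their median log2 change was 0.10, or 0.20 after the trend was subtracted.

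Among cytoplasmic transducers, 2 of 23 tested genes were lower and none higher, with a median log2 change of -0.039. Gsk3b, a kinase gene whose product helps mark Gli proteins for processing, fell by 0.19 on the log2 scale with an SE of 0.0617 and an adjusted p of 0.0273 in the authors' deposited table. Prkaca, a catalytic subunit of protein kinase A with a like role, fell by 0.20 on the log2 scale with an SE of 0.0685 and an adjusted p of 0.0413 in the authors' deposited table. After the trend was subtracted, Gsk3b was the 1 gene of the list called, with an adjusted p of 0.0479 (range 0.0362 to 0.0928). Prkaca was not called in any of its 7 alternatives (range 0.0544 to 0.522). Sufu, the inhibitor of Gli proteins in the cytoplasm, had a log2 change of -0.11 with an SE of 0.0666 and an adjusted p of 0.280 in the authors' deposited table.

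Of genes for transport in the cilium, 1 of 27 tested was higher and none lower, with a median log2 change of 0.073. Kif3a, a motor subunit that carries cargo into the cilium, rose by 0.22 on the log2 scale with an SE of 0.0709 and an adjusted p of 0.0217 in the authors' deposited table. Its adjusted p after the trend was subtracted was 0.0743 (range 0.0143 to 0.0987).

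Among limb targets of the pathway, 4 of 15 tested genes were lower and none higher, against 7.89% and 3.81% of all tested genes. The list median was a log2 change of -0.14, or -0.082 after the trend was subtracted. Cdk6, a cell cycle kinase gene, fell by 0.71 on the log2 scale with an SE of 0.190 and an adjusted p of 0.00543 in the authors' deposited table. Tbx2, a T-box gene of the limb margins, fell by 0.33 on the log2 scale with an SE of 0.0890 and an adjusted p of 0.00475 in the authors' deposited table, but after the trend was subtracted its log2 change was -0.082 with an adjusted p of 0.707 (range 0.00638 to 0.707). Hoxd12 and Hoxa13 are genes of the autopod, the future hand. Hoxd12 fell by 0.25 on the log2 scale with an SE of 0.0738 and an adjusted p of 0.0133, and Hoxa13 by 0.30 on the log2 scale with an SE of 0.102 and an adjusted p of 0.0330, in the authors' deposited table. Neither was called after the trend was subtracted (ranges 0.0179 to 0.206 for Hoxd12 and 0.0437 to 0.195 for Hoxa13). Hoxd13, of the same region, had a log2 change of 0.049 with an SE of 0.0581 and an adjusted p of 0.628 in the authors' deposited table and did not pass. After the trend was subtracted, 2 of the 15 were called, both lower: Cdk6, with an adjusted p of 0.0128 (range 0.00696 to 0.228), and Hoxd11, with a log2 change of -0.36 and an adjusted p of 0.0147, against 0.0522 in the authors' deposited table.

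Of genes that act upstream of Shh in the limb, 5 of 18 tested were lower and none higher, against 7.89% and 3.81% of all tested genes. The list median was a log2 change of -0.18, or -0.13 after the trend was subtracted. Hoxd12 and Hoxa13 belong here too. Etv4 and Etv5 encode ETS factors that respond to FGF and keep Shh to the posterior margin. The rebuilt level of Etv4 was 1432 in Inv1DelCTCF and 2178 in Inv1, and it fell by 0.61 on the log2 scale with an SE of 0.112 and an adjusted p of 1.21e-05 in the authors' deposited table. For Etv5 the rebuilt level was 3332 in Inv1DelCTCF and 4645 in Inv1, and it fell by 0.48 on the log2 scale with an SE of 0.0965 and an adjusted p of 9.12e-05 in the authors' deposited table. Both were called in all 7 alternatives, at 1.64e-05 to 0.00721 for Etv4 and 0.000123 to 0.00436 for Etv5. Zbtb16, a zinc finger gene of limb patterning, fell by 0.56 on the log2 scale with an SE of 0.179 and an adjusted p of 0.0220 in the authors' deposited table and had an adjusted p of 0.122 after the trend was subtracted (range 0.0267 to 0.315). Hand2, which encodes an activator of Shh, had a log2 change of -0.16 with an SE of 0.0848 and an adjusted p of 0.195 in the authors' deposited table and did not pass. With the trend removed 3 of the 18 were called, Etv4, Etv5 and Hoxd11, all lower, against 3.71% of all genes.

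In the relay of Gremlin, BMPs and ridge FGFs, 3 of 15 tested genes were lower and 1 higher, against 7.89% and 3.81% of all tested genes. The list median was a log2 change of -0.11, or -0.12 after the trend was subtracted. The ligand gene Bmp4 fell by 0.44 on the log2 scale with an SE of 0.131 and an adjusted p of 0.0132, and Bmp7 by 0.27 on the log2 scale with an SE of 0.0926 and an adjusted p of 0.0367, in the authors' deposited table. Bmp7 was not called under either centring, at 0.0528 and 0.0511, nor in 4 of the other 5 alternatives (range over all 7 0.0484 to 0.404). Id1, a target of BMP signalling, fell by 0.38 on the log2 scale with an SE of 0.111 and an adjusted p of 0.0104 in the authors' deposited table, and had an adjusted p of 0.131 after the trend was subtracted (range 0.0140 to 0.131). Nog, which encodes the BMP antagonist Noggin, had a rebuilt level of 169 in Inv1DelCTCF and 87.8 in Inv1. It rose by 0.94 on the log2 scale with an SE of 0.312 and an adjusted p of 0.0296 in the authors' deposited table. The fitted change was thus negative for the antagonist gene Grem1 and positive for Nog, and the difference was not tested. After the trend was subtracted Nog was the 1 gene of the list called, with an adjusted p of 0.0263 (range 0.0263 to 0.612), and Bmp4 had one of 0.0724 (range 0.0175 to 0.155).

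**Figure D5:**
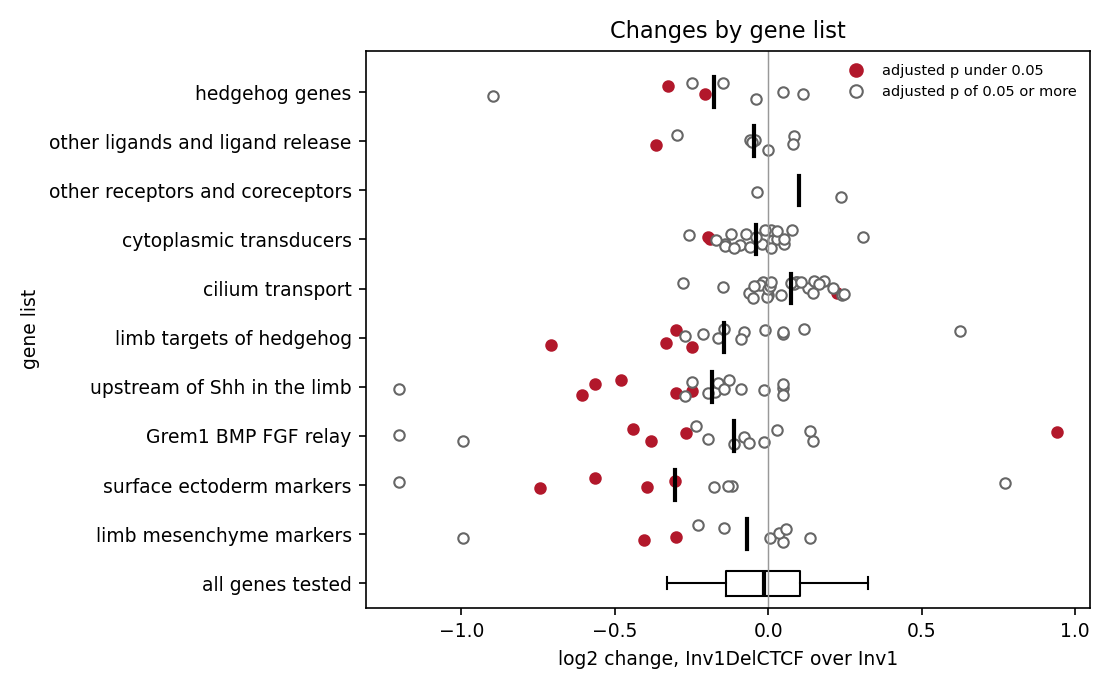
Log2 change of Inv1DelCTCF over Inv1 for the tested genes of each list, with filled points for called genes, bars for list medians, and a box with whiskers over the central 90% of all genes tested. Most called genes of the pathway lists lie left of 0, and Nog at 0.94 and Kif3a at 0.22 lie right of it.

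The plot by list also holds markers of other cells. Of surface ectoderm markers, 4 of 9 tested were lower and none higher, against 7.89% and 3.81% of all tested genes. Their median log2 change was -0.30, or -0.18 after the trend was subtracted. The summed level of these markers was 10016 in Inv1DelCTCF and 12063 in Inv1. Among them the keratin gene Krt5 fell by 0.30 on the log2 scale with an SE of 0.0760 and an adjusted p of 0.00231, and the cadherin gene Cdh1 by 0.39 on the log2 scale with an SE of 0.113 and an adjusted p of 0.00952, in the authors' deposited table. Krt18, another keratin gene, fell by 0.56 on the log2 scale with an SE of 0.165 and an adjusted p of 0.0117 in the authors' deposited table. Krt15, a further keratin gene, was the 1 marker with a positive change, a log2 change of 0.77 with an SE of 0.305 and an adjusted p of 0.0757 in the authors' deposited table, which did not pass, with an unadjusted p of 0.0114 and rebuilt levels of 254 in Inv1DelCTCF and 148 in Inv1. With the trend removed 1 marker was called, Cdh1 (ranges 0.00310 to 0.230 for Krt5, 0.0128 to 0.104 for Cdh1 and 0.0151 to 0.223 for Krt18). Of limb mesenchyme markers, 2 of 10 tested were lower, Lhx2 and Hoxa13, and none higher, with a median of -0.068 and a summed level of 75823 in Inv1DelCTCF and 76533 in Inv1. Lhx2, a factor gene of the distal mesenchyme, fell by 0.41 on the log2 scale with an SE of 0.110 and an adjusted p of 0.00587 in the authors' deposited table. With the trend removed its log2 change was -0.24 with an adjusted p of 0.239 (range 0.00788 to 0.239), and 0 mesenchyme markers were called. The part of the ectoderm markers in the changes of the hedgehog genes was not tested.

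Of the listed pathway genes, Ihh, Stk36 and Cul3 are also in the tables of the inversions against wild type. Ihh, the Indian hedgehog gene, had log2 changes of 0.13 in Inv1, 1.37 in Inv2, 1.77 in Inv3 and 1.74 in Inv4, in the authors' deposited tables, and was called in the last 3. Stk36, a relative of the fly gene fused, had log2 changes between 0.044 in Inv2 and 0.20 in Inv1 in the authors' deposited tables and was called in none, with 1 unadjusted p under 0.05, that of Inv1 at 0.00465. Cul3, a ubiquitin ligase subunit that acts on Gli proteins, was called in Inv3 alone, where it fell by 0.16 on the log2 scale with an SE of 0.0552 and an adjusted p of 0.0147, in the authors' deposited tables. Called genes made up 8.97% of those listed for Inv1, 4.05% for Inv2, 32.9% for Inv3 and 20.8% for Inv4. These shares cover the listed genes alone and are not shares over all genes. In Inv2, Ihh had an unadjusted p of 2.53e-07 and an adjusted p of 0.000185 by the authors' Wald test. That gap is wider than Benjamini-Hochberg adjustment over the 74 listed genes allows, so more genes were adjusted than are listed. The inversions share the wild type libraries, differences between them were not tested for these genes, and whether these fold changes were shrunk is not given in the sources used here. In Inv1DelCTCF against Inv1, Stk36 had a log2 change of -0.17 with an SE of 0.10 and an adjusted p of 0.267, and Cul3 a log2 change of 0.077 with an SE of 0.0618 and an adjusted p of 0.440, in the authors' deposited table.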

How the data were processed

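Per the submitters' processing notes, the authors used STAR, DESeq2 and the build mm9, without versions. The deposited tables hold a mean normalised count pooled over libraries (a signal), a log2 fold change with its SE, a Wald score, a p-value and an adjusted p-value. The members and lists were chosen with earlier results of these data known. Numerator groups are not named, so the Inv1 levels of 49 genes (means from 300 upward) were rebuilt from both fits. They differed by a median of 0.0124 (log2) if positive values mean higher in Inv1 in the Inv1DelCTCF table, and by 0.107 or more under the other 3 conventions, and that sign was turned. The design text calls replicates biological without naming litters, so p-values cover the spread between these libraries. Depth per library is unknown.

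Levels follow from the mean, the ratio and the numbers of libraries (2 and 3), and 95% intervals from the SE. The 9 members were named whatever their p, with every called gene of a pathway list, up to 6, and up to 3 called genes of a marker list, by adjusted p. Of the listed genes, 3 are not reported here and are left out of the lists. Genes named without a call were chosen after their values were seen. Transcript GC content and length (GENCODE, found for 97.52% of tested genes) entered cubic terms fitted by weighted least squares. Further alternatives were other thresholds, adjustments and centrings, and shrinkage (prior SD 0.139). Steps across genes were tested on simulated data. The software was Python (3.11.15) with pandas (2.3.3), numpy (2.4.6), SciPy (1.17.1) and, for figures, matplotlib (3.10.9).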

Additional observations from a re-analysis of the deposited data

How the results depend on the processing

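No paired analysis was possible because the tables hold no values per library, and for the same reason no replicate could be left out and no other normalisation of counts was run. Of 8 members tested, the count called was 2 with both centrings and both other adjustments, 3 at an adjusted p under 0.1, 1 with a log2 change of at least 0.3, and 0 at an adjusted p under 0.01, after either GC and length trend, and with shrinkage. Ptch1 had a log2 change of -0.30 after the trend, -0.27 with coding transcripts and -0.22 with shrinkage, and Smo -0.049, -0.054 and -0.17, none of them called. Gli2 turned positive, at 0.12 and 0.13. After the trend the lists held 0 called genes for ligands, 0 for coreceptors, 1 for transducers, 0 for the cilium, 2 for limb targets, 3 upstream of Shh and 1 in the relay, centring gave 2 for the cilium, 1 for transducers and 3 in the relay, where Bmp7 was lost, and adjustment over genes with a mean of at least 10 gave 1 for transducers. The coreceptor list had a median of -0.035 over genes with a mean of at least 10 and 0.20 after the trend. For single called genes that are not members, 64 of the recomputed values kept their direction and lost their call, and 97 kept both. Over all genes 1312 were called, against 406 after the trend, 373 with coding transcripts, 412 with shrinkage, 576 at an adjusted p under 0.01 and 686 with a log2 change of at least 0.3. With shrinkage, Tbx2, Etv4 and Etv5 were the pathway genes named above that were still called. The causes were not tested. Adjustment over other gene sets, coding transcripts, the trend on lists, and the member count after centring, trend and shrinkage were added after seeing the data.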

Other observations

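Markers of further cell types gave the following values. Of 8 tested proximal or anterior limb markers 1 was higher, Shox2, which rose by 0.27 on the log2 scale with an SE of 0.0966 and an adjusted p of 0.0487 in the authors' deposited table. Its adjusted p was over 0.05 in 5 of 7 alternatives (range 0.0383 to 0.20). Of the 8, 5 had a negative change, the median was -0.094 and the summed level was 18050.4 in Inv1DelCTCF and 18099.7 in Inv1. Of 5 tested erythroid markers 2 were lower, the embryonic globin genes Hba-x, which fell by 0.44 on the log2 scale with an SE of 0.102 and an adjusted p of 0.000823, and Hbb-bh1, which fell by 0.28 on the log2 scale with an SE of 0.0973 and an adjusted p of 0.0360, in the authors' deposited table. Over the alternatives the adjusted p was 0.00111 to 0.0451 for Hba-x and 0.0234 to 0.170 for Hbb-bh1, and the list median was 0.030. A further 3 were listed at 0, and the summed level of erythroid markers was 81825 in Inv1DelCTCF and 87007 in Inv1. Of 6 tested endothelial markers 1 was lower, the cadherin gene Cdh5, which fell by 0.24 on the log2 scale with an SE of 0.0786 and an adjusted p of 0.0275 in the authors' deposited table. Its adjusted p was over 0.05 in 4 of 7 alternatives, 0.208 after the trend among them (range 0.0365 to 0.208). The endothelial median was -0.12 and the summed level 7519.6 in Inv1DelCTCF and 8317 in Inv1.

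Of 4 muscle precursor, 2 macrophage, 2 nerve or Schwann precursor and 1 hindlimb marker tested, none was called by the authors' DESeq2 test, and 0, 1, 1 and 0 had an unadjusted p under 0.05. The summed level of muscle precursor markers was 2767 in Inv1DelCTCF and 2193 in Inv1, with a median log2 change of 0.086. Of that sum Myog made up 1518 in Inv1DelCTCF and 1033 in Inv1, with a log2 change of 0.56 with an SE of 0.391 and an adjusted p of 0.374 in the authors' deposited table and an SE 4.26 times the running median, while Myf5 was at 178 in Inv1DelCTCF and 178 in Inv1 and Pax3 at 129.6 in Inv1DelCTCF and 137 in Inv1. That of macrophage markers was 1005 in Inv1DelCTCF and 769 in Inv1, and after the GC and length trend was subtracted Csf1r, a receptor gene of macrophages, had a log2 change of 0.53 and an adjusted p of 0.0409, against 0.0708 in the authors' deposited table. Nerve and Schwann precursor markers summed to 1437 in Inv1DelCTCF and 1129 in Inv1, and hindlimb markers to 722 in Inv1DelCTCF and 810.0 in Inv1.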
